A study of Gallus gallus with 6 samples.

Results

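The frontonasal mesenchyme of the chicken embryo was followed over 3 stages of facial outgrowth, HH15, HH18 and HH22 of the Hamburger and Hamilton series. Its cells were chosen by measured values: a cell barcode was taken as a member when it held at least 1 UMI (unique molecular identifier, 1 counted mRNA molecule) of ALX4 or ALX1 and 0 UMIs of each of EPCAM, FABP7 and CDH5. This rule selected 2121 of the 9006 nasal barcodes, and of 17268 in the series. The members were 643 of 2826 barcodes at HH15 (22.8%, exact 95% interval 21.2 to 24.3), 1114 of 4760 at HH18 (23.4%, 22.2 to 24.6) and 364 of 1420 at HH22 (25.6%, 23.4 to 28.0). The series holds 6 droplet libraries of untreated chicken embryos, 3 of the frontonasal prominence at these stages and 3 labelled somite, from the back of the embryo at forelimb level, at HH12, HH15 and HH20, each from pooled embryos of both sexes dissociated with trypsin. With 1 library per stage no difference between stages has a replicate, so stage and library cannot be told apart, and every value below is a description of these libraries with no test. Intervals cover counting error only.

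The frontonasal mesenchyme derives from the cranial neural crest, a population that leaves the edge of the closing neural tube and settles beneath the facial ectoderm, where it later forms cartilage, bone, dermis and other connective tissue of the upper face. The aristaless-like homeobox factors ALX1 and ALX4 are expressed in this territory and are required for a normal mid-face. Its outgrowth depends on exchange of BMP, FGF, Hedgehog, WNT and retinoid signals with the overlying ectoderm and the forebrain. EPCAM marks epithelia, FABP7 neural progenitors and glia, and CDH5 endothelium, so the rule was meant to leave mesenchyme.

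The 3 summed profiles held 1622859 UMIs at HH15, 3337607 at HH18 and 1468277 at HH22, with a median of 2241, 2656 and 3178 UMIs per member barcode. Levels are given as CPM, the UMIs of a gene divided by all UMIs summed over the members of a library and given per 1000000. At HH15 a count of 3 UMIs equals 1.85 CPM, at HH18 0.899 and at HH22 2.04. Between 6 and 21 barcode sequences were shared by any 2 nasal libraries. The share of members called female from the W-linked gene WPKCI-7 was 53.8% at HH15, 60.6% at HH18 and 33.2% at HH22, so sex composition moved with stage.

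The label was set against markers of mesenchyme that the rule did not use, and against lists of other cell types, from which the 3 genes the rule sets to 0 were left out. PRRX1, a paired-type homeobox factor of mesenchyme, was read at 121 CPM at HH15, 98.9 at HH18 and 232 at HH22 among the members, against 29.0, 44.7 and 247 CPM in nasal barcodes without an ALX UMI (globin-rich barcodes, described below, left out). TFAP2B, an AP-2 factor of crest, stood at 166, 166 and 74.2 CPM in the members and at 39.9, 65.9 and 30.3 CPM in those barcodes. PDGFRA, a growth factor receptor of mesenchyme, stood at 46.2, 50.3 and 31.3 CPM against 9.3, 9.12 and 15.6 CPM. All 3 markers were higher in the members at each stage except PRRX1 at HH22, where the 2 groups differed little once globin-rich barcodes were left out of both (278 against 247 CPM). Of the other mesenchymal markers, SIX2 is given for that group further below, and TFAP2A, TWIST1 and MSX1 are not compared with it here. The neuroepithelial list of 6 genes, without FABP7, summed to 18.5, 14.7 and 6.81 CPM in the members, with RAX at 0, against 169.6, 127 and 71.4 CPM in all other nasal barcodes. The epithelial list of 6, without EPCAM, summed to 29.6, 47.3 and 17.0 CPM with ESRP1 at 0, against 292, 182 and 68.7 CPM. The 7 neuronal genes summed to 63.5, 50.6 and 86.5 CPM in the members. The endothelial list of 6, without CDH5, summed to 12.3, 11.99 and 32.0 CPM with CLDN5 at 0, against 22.1, 22.6 and 44.3 CPM in other nasal barcodes, and the immune, glial and muscle lists to at most 8.63 CPM. Part of these levels may be free RNA, and their part in the results was not tested. As a contrast, the same rule was met by 1.35%, 2.88% and 3.25% of the somite barcodes at HH12, HH15 and HH20.

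The rule left out many barcodes that held ALX and other mesenchymal genes. Of 1095, 2247 and 679 barcodes with an ALX UMI, 452, 1133 and 315 were dropped, and 446, 1116 and 310 of these held FABP7. FABP7 was also read in 44.8%, 43.5% and 50.5% of barcodes with over 50% globin, which are red blood cells by content (median 9430, 8812 and 14496 UMIs), so FABP7 UMIs were also found in barcodes of a cell type that should lack the gene. By level FABP7 was at 65.5, 66.5 and 48.9 CPM in the red blood barcodes. In the dropped ALX-positive barcodes, most of them chosen for holding it, FABP7 was at 472, 565 and 355 CPM. The part of free FABP7 RNA in the exclusions was not tested. The dropped ALX-positive barcodes read SIX2 at 76.5, 95.6 and 200.04 CPM and PRRX1 at 85.2, 98.0 and 274 CPM over the 3 stages. Among the members without globin-rich barcodes SIX2 was higher at each stage (107, 125 and 263 CPM). PRRX1 was higher at HH15 and close later (121, 102 and 278 CPM). COL1A1 was lower in the dropped barcodes, at 236, 351 and 685 CPM against 315, 461.5 and 1027. All dropped barcodes together also held more UMIs (median 3301, 3504 and 4245 against 2241, 2656 and 3178 in all members). At the border of the rule, 283, 456 and 134 members held just 1 ALX UMI, and 505, 670 and 322 barcodes held no ALX UMI and none of the 3 excluding genes. Without globin-rich barcodes, SIX2 was at 99.7, 109 and 252 CPM in the former and at 58.8, 81.7 and 223 CPM in the latter. TUBB3, a neuronal tubulin, was at 45.2, 41.5 and 83.0 CPM in the former and at 120, 191 and 338 CPM in the latter, and PRRX1 at 145, 129.6 and 368 CPM against 102, 98.1 and 445 CPM. Barcodes just outside the rule thus held mesenchymal genes with more neuronal RNA.

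Barcodes rich in red blood cell RNA were found among the members of the later libraries. Barcodes with at least 10% of their UMIs in globin genes, here called globin-rich, numbered 0 of 643 at HH15, 11 of 1114 at HH18 and 19 of 364 at HH22, and globin made up 0.0691%, 2.15% and 13.7% of the summed UMIs. Of the globin-rich members, 9 at HH18 and 17 at HH22 held over 50% globin, and so are red blood cells by content as above. They met the rule and are kept in the values for all members. The 19 globin-rich barcodes at HH22 carried 272579 UMIs and 93.3% of the globin. Without them globin still went from 0.0691% to 0.272% and 1.13%, and the median member held 0.0581%, 0.235% and 1.15%. Because a CPM is a share of a total, the globin lowers every other gene at HH22. The median log2 ratio HH22/HH15 over all tested genes was -0.39 for all members and -0.16 without globin-rich barcodes. For this reason each log2 ratio below is given relative to that median over all genes tested, with its exact counting interval, and counts of rising and falling genes are given for both sets of barcodes.

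A gene was said to rise when its mean over the 3 sums was at least 20 CPM, when it was higher at each later stage, when HH22 was at least 2 times HH15 and when the 95% Poisson intervals of these stages did not overlap, and to fall under the mirrored rule. Among the 4695 genes tested, 77 rose (1.64%) and 401 fell (8.54%). Without globin-rich barcodes, 112 of 4829 rose (2.32%) and 170 fell (3.52%), of which 68 and 166 were shared with the first sets. Rising genes thus made up 16.1% of calls in one case and 39.7% in the other, and TMM scaling of all members, a method that sets the bulk of genes level, gave 137 rising and 121 falling genes (53.1% rising). The larger of the 2 steps on the log2 scale was HH18 to HH22 for 332 of 400 falling genes with a UMI at every stage (83.0%) and for 43 of 74 rising ones (58.1%). Without globin-rich barcodes it was 127 of 169 (75.1%) and 75 of 112 (67.0%). A further 26 genes were at least 2-fold higher and 25 at least 2-fold lower at HH22 without changing in order, and without globin-rich barcodes 48 and 11. The shares of all tested genes, 1.64% rising and 8.54% falling (2.32% and 3.52% without globin-rich barcodes), are the background for every list count below, also where they are not repeated. Lists hold few tested genes, so a count near these shares is not read as a result on its list.

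The named genes described in the next paragraphs comprise 32 of the rising and 46 of the falling genes (each gene identifier counted). Without globin-rich barcodes all 32 rising and 32 of the 46 falling genes kept their call, and with TMM scaling of all members 32 and 28. In female members, 24 rising and 30 falling genes met the rule, and in male members 27 and 42. With PDGFRA in place of ALX in the rule, which leaves 101, 180 and 62 barcodes, 16 and 21 did. When FABP7 was not used to leave barcodes out, 21 and 41 did, and SIX2, SNAI1, TBX3, ROBO1, RBP5, RSPO1 and ID3 were among the rising genes that no longer met it. CRABP-I, SPRY1, MYBL2 and NR3C1 fell in both sets of barcodes but not with TMM scaling, nor did TPM1 and CDON with TMM scaling of the globin-poor members. For several genes the values under PDGFRA or by sex are given in their place.

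**Figure D1:**
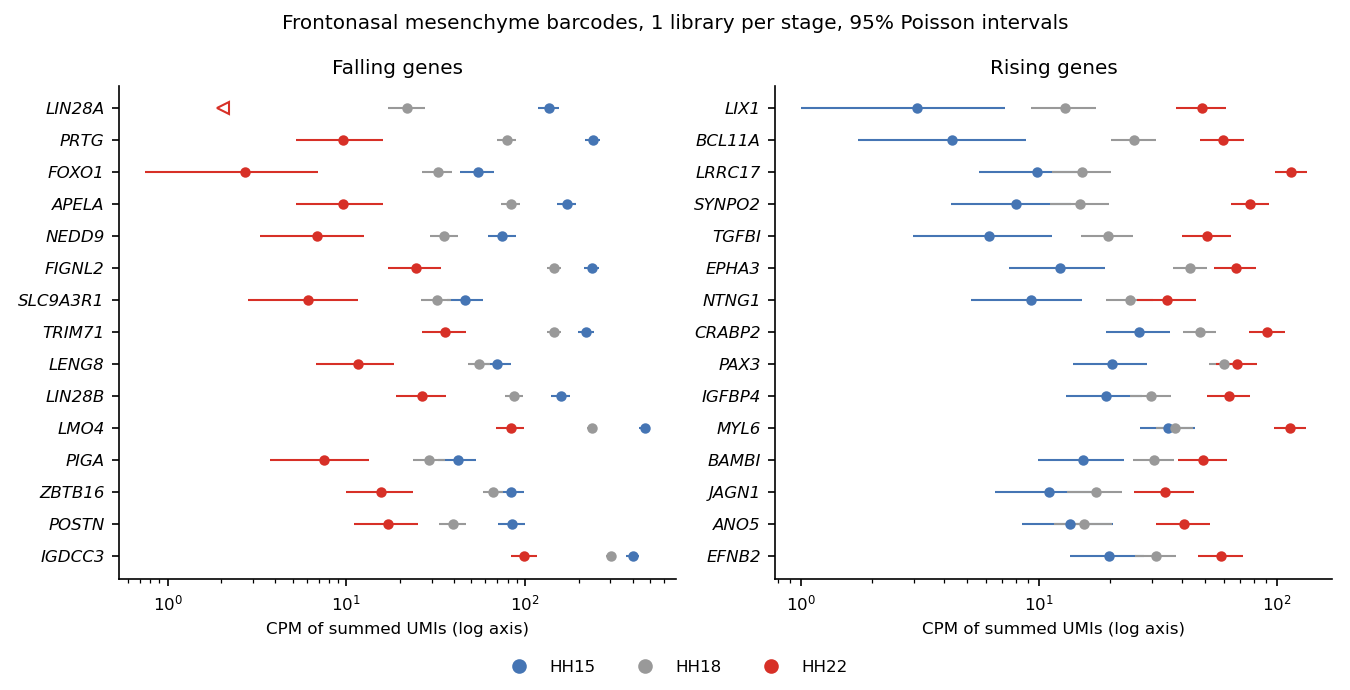
CPM of the 15 falling genes (left) and 15 rising genes (right) with the largest ratio among those at least as high in the members as in other nasal barcodes. That comparison was of the mean over the stages and kept globin-rich barcodes. Without them LIN28A, BCL11A, CRABP2 and MYL6 were among the genes with a lower mean in the members. Points are the summed members of 1 library, bars exact 95% Poisson intervals, and the open triangle is the level of 3 UMIs for LIN28A, which had none at HH22. LIN28A went from 136 CPM at HH15 to 0 at HH22 and LIX1 from 3.08 to 48.4.

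The genes that fell furthest include the machinery of early developmental timing. LIN28A encodes an RNA-binding protein that blocks maturation of the let-7 microRNAs, and LIN28B is its paralogue with the same role. LIN28A had 220, 73 and 0 UMIs, or 136 CPM at HH15, 21.9 at HH18 and 0 at HH22. With 3 UMIs put in place of 0, HH22 was 66.3-fold lower (relative log2 -5.66), and 54.0-fold lower without globin-rich barcodes. The exact counting interval of the relative log2 with all members had its upper limit at -5.35. LIN28B went from 158 CPM at HH15 to 86.9 at HH18 and 26.6 at HH22 (relative log2 -2.19, -2.71 to -1.70). Each later library lay below the former for both paralogues, with no overlap of their intervals. TRIM71, a let-7 target that encodes an RNA-binding ubiquitin ligase, stood at 220.0 CPM at HH15, 145 at HH18 and 35.4 at HH22 (-2.25, -2.69 to -1.82). SALL4, a zinc finger factor of pluripotent and embryonic progenitor cells, stood at 149.7 CPM at HH15, 85.4 at HH18 and 38.1 at HH22 (-1.58, -2.03 to -1.16). These are 4 of the 9 tested genes of a list on the LIN28 axis and growth (all genes: 8.54% fell), whose median relative log2 was -0.61. The same 4 of 10 fell without globin-rich barcodes (all genes: 3.52%). The list was not uniform, since H1F0 rose (its values stand with the blood genes). HMGA2, a chromatin protein that let-7 represses, was at 611 CPM at HH15, 779 at HH18 and 718 at HH22 (0.62) and met neither rule. Among globin-poor members HMGA2 was not lower at HH22 than at HH18. It was at 645, 813 and 842 CPM in those with ALX4 alone, 522, 787 and 789 with ALX1 alone and 577, 784 and 973 with both. IGF2BP3, an RNA-binding protein, was at 590.3, 577 and 395 CPM with all members (-0.19), and MYCN at 32.7, 27.0 and 16.3 CPM (-0.61).

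The decline of the LIN28 axis was not seen in the members alone. Nasal barcodes without an ALX UMI read LIN28A at 139.6, 27.0 and 0.459 CPM, TRIM71 at 69.8, 53.4 and 28.0 CPM and LIN28B at 92.7, 61.7 and 27.1 CPM over HH15, HH18 and HH22. Somite barcodes chosen by PDGFRA, with the same 3 genes at 0, read LIN28A at 188, 74.3 and 4.17 CPM over HH12, HH15 and HH20, where the stages differ from the nasal ones. In PDGFRA-positive nasal barcodes, taken without reference to ALX and in part the same cells, LIN28A was at 114, 21.1 and 0 CPM, TRIM71 at 222, 162 and 58.5 CPM and LIN28B at 175, 96.8 and 45.01 CPM. SALL4 was at 114, 109 and 76.5 CPM there (relative log2 -0.47), and did not meet the rule.

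Surface and signalling genes followed in the falling set. PRTG (protogenin), an immunoglobulin superfamily receptor of the early embryo, went from 239 CPM at HH15 to 78.8 at HH18 and 9.54 at HH22 (-4.26, -5.14 to -3.49). Its relative IGDCC3 stood at 399 CPM at HH15, 304 at HH18 and 98.8 at HH22 (-1.63, -1.90 to -1.36). APELA, a secreted peptide that activates the apelin receptor, was read at 171 CPM at HH15, 83.0 at HH18 and 9.54 at HH22 (-3.77, -4.66 to -3.00). The 3 genes were lower at HH18 than at HH15 and lower again at HH22, and in nasal barcodes without an ALX UMI APELA was at 39.9, 39.6 and 8.72 CPM. NEDD9, a docking protein of focal adhesions, stood at 74.6 CPM at HH15, 35.4 at HH18 and 6.81 at HH22 (-3.06, -4.16 to -2.13). FIGNL2, a protein of the AAA ATPase family, stood at 235 CPM at HH15, 144 at HH18 and 24.5 at HH22 (-2.87, -3.41 to -2.38). SLC9A3R1, a scaffold beneath the plasma membrane, stood at 46.2 CPM at HH15, 32.1 at HH18 and 6.13 at HH22 (-2.52, -3.71 to -1.52). LENG8 and PIGA, the latter an enzyme of GPI anchor synthesis, complete the 15 leading genes along with those given elsewhere, at 69.6, 55.4 and 11.6 CPM and 41.9, 29.1 and 7.49 CPM. Another 5 falling genes had a higher mean over the 3 stages in the other nasal barcodes, though not all of them at each stage. In the members they were read as follows: FABP3 (74.6, 13.8 and 8.85 CPM), PHACTR1 (38.2, 31.8 and 9.54 CPM), NPM3 (598, 361 and 165 CPM), TNNC1 (45.6, 33.0 and 13.6 CPM) and FAM104A (67.8, 54.2 and 21.8 CPM).

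Of 77 tested genes on a list of transcription factors, without ALX4 and ALX1, 7 rose and 12 fell (all genes: 1.64% and 8.54%). Their median relative log2 was 0.39. Without globin-rich barcodes 9 of 81 rose and 9 fell (all genes: 2.32% and 3.52%). The list was not complete, since BCL11A was not on it, and its rising genes include PAX3, ID2 and ID3, given below. FOXO1, a forkhead factor that insulin signalling keeps out of the nucleus, was read at 54.2 CPM at HH15, 32.4 at HH18 and 2.72 at HH22 (-3.93, -5.83 to -2.52), the last value from 4 UMIs. In PDGFRA-positive nasal barcodes it was at 35.8, 45.7 and 9.0 CPM (-1.87) and met neither rule. LMO4, a LIM-only cofactor with no DNA-binding domain of its own, went from 468 CPM at HH15 to 237 at HH18 and 83.1 at HH22 (-2.11, -2.39 to -1.83). ZBTB16, a zinc finger repressor, stood at 83.8 CPM at HH15, 66.2 at HH18 and 15.7 at HH22 (-2.03, -2.74 to -1.39). All 3 fell in both sets of barcodes. NR2F1, an orphan nuclear receptor, stood at 96.1 CPM at HH15, 45.5 at HH18 and 35.4 at HH22 (-1.05, -1.53 to -0.59) and also fell in both, with most of its decline before HH18. E2F3, MYBL2 and the glucocorticoid receptor gene NR3C1 fell in both sets as well, to 14.3, 41.5 and 17.0 CPM at HH22 from 42.5, 93.0 and 41.3 at HH15, but the ratio of NR3C1 turned to the other side of the median in female cells (relative log2 0.06).

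Crest transcription factors, other than ALX4 and ALX1, were read in both directions with all members. Of 15 tested, 4 rose (among them SIX2, SNAI1 and PAX3) and 3 fell (TFAP2A, TFAP2B, ETS1), with a median relative log2 of 0.61 (all genes: 1.64% rose and 8.54% fell). Without globin-rich barcodes 4 rose and none fell (all genes: 2.32% and 3.52%). SIX2, a homeobox factor of progenitor mesenchyme, went from 107 CPM at HH15 to 121 at HH18 and 216 at HH22 (1.40, 1.13 to 1.67). Most of that change came after HH18. SNAI1, a zinc finger repressor of epithelial genes, stood at 27.1 CPM at HH15, 31.5 at HH18 and 66.7 at HH22 (1.69, 1.16 to 2.24). PAX3, a paired box factor of crest and dermomyotome, stood at 20.3 CPM at HH15, 59.9 at HH18 and 68.1 at HH22 (2.13, 1.55 to 2.75). Without globin-rich barcodes PAX3 was at 20.3, 61.9 and 82.0 CPM. The larger part of its rise came before HH18 in both sets. In nasal barcodes without an ALX UMI PAX3 was at 11.99, 18.2 and 12.4 CPM, and PAX7, its paralogue, was at 69.6, 54.5 and 42.9 CPM in the members (-0.31, neither rule met).

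On the falling side, TFAP2A stood at 141 CPM at HH15, 99.2 at HH18 and 63.3 at HH22 (-0.77, -1.13 to -0.41). TFAP2B was nearly level between HH15 and HH18 and then lower (-0.77, -1.11 to -0.45). ETS1, a factor that drives early crest migration, stood at 82.6 CPM at HH15, 53.3 at HH18 and 36.8 at HH22 (-0.78, -1.26 to -0.31). None of these met the 2-fold rule without globin-rich barcodes, where TFAP2B was at 166, 171 and 91.2 CPM and TFAP2A at 141, 102 and 76.1 CPM.

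Several mesenchymal factors were highest in the HH22 library without an ordered change, and so met neither rule. MSX1, a homeobox target of BMP signalling, was read at 43.1 CPM at HH15, 36.3 at HH18 and 182 at HH22 (2.47, 2.08 to 2.87). PRRX1 stood at the values given above (1.33, 1.07 to 1.59). TWIST1, a basic helix-loop-helix factor of mesenchyme, stood at 43.1 CPM at HH15, 25.2 at HH18 and 64.7 at HH22 (0.97, 0.51 to 1.44). In each the HH18 library was the lowest, and the same order held without globin-rich barcodes. MSX2 was at 22.2, 27.9 and 25.9 CPM (0.61).

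The pair of genes that define the members moved in opposite directions. Since they chose the barcodes, their values are a description of the selection. ALX4 stood at 622 CPM at HH15, 532 at HH18 and 278 at HH22 and ALX1 at 185 CPM at HH15, 205 at HH18 and 315 at HH22. The barcodes with ALX4 alone numbered 408, 654 and 128, those with ALX1 alone 88, 173 and 123, and those with both 147, 287 and 113. In PDGFRA-positive nasal barcodes, which were not selected on ALX, ALX4 was at 483, 477 and 243 CPM and ALX1 at 111, 164 and 324 CPM. Apart from the pair themselves, few genes met a 2-fold rule for which of them was read. In the globin-poor members 2 of 4798 genes (0.0417%) were at least 2-fold higher in ALX4-only than in ALX1-only barcodes in all 3 libraries, and none (0%) the other way. This rule had no counting interval, and the globin-poor ALX1-only barcodes numbered 88, 169 and 115, with 202983, 490416 and 389081 UMIs. Low genes rest on few UMIs there, so the few calls do not show that the groups are alike. SMOC2, a secreted calcium-binding matrix protein, was at 35.4, 45.05 and 22.4 CPM against 9.85, 16.3 and 7.71, the latter from 2, 8 and 3 UMIs. SH3BP4, an endocytic adaptor, was at 47.6, 38.5 and 27.3 CPM against 9.85, 18.4 and 10.3, the latter from 2, 9 and 4 UMIs. DCN, a small proteoglycan, was higher in ALX4-only barcodes of each library (514, 583 and 514 CPM against 246, 338 and 293), without reaching 2-fold in all 3.

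Regional factors are genes that pattern the face, among them homeobox, T-box and forkhead genes and the orphan nuclear receptors NR2F1 and NR2F2. They gave 1 rising and 2 falling genes among 11 tested (all genes: 1.64% and 8.54%). Without globin-rich barcodes they gave 1 and 1 among 12 (all genes: 2.32% and 3.52%). TBX3, a T-box repressor, rose from 25.3 CPM at HH15 to 43.1 at HH18 and 56.5 at HH22 (1.55, 0.99 to 2.13), but stood at 32.2, 54.5 and 40.5 CPM in the PDGFRA-positive barcodes (relative log2 0.45). NR2F2, the paralogue of NR2F1, was at 346 CPM at HH15, 257 at HH18 and 155 at HH22 (-0.77, -1.0003 to -0.55) and fell with all members but not without globin-rich barcodes. TBX22, a T-box gene of the palate, was highest at HH18, at 35.7, 96.2 and 69.5 CPM.

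**Figure D2:**
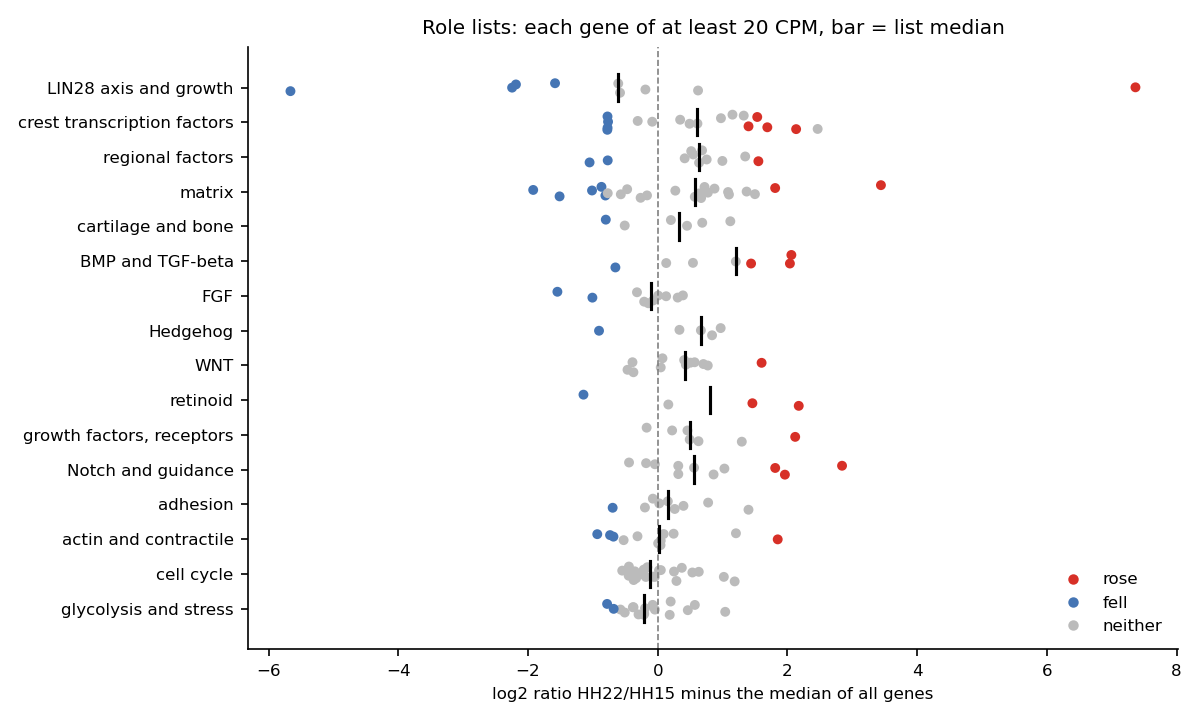
Log2 ratio HH22/HH15 of every tested gene of 16 role lists, minus the median of all genes tested (dashed line), with all members. Red points rose, blue points fell, grey points met neither rule and black bars are list medians; LIN28A (far left) is a bound and H1F0 (far right) is given with the blood genes.

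Matrix genes changed in both directions. Of 23 tested, 2 rose and 5 fell (all genes: 1.64% and 8.54%), with a median relative log2 of 0.57. Without globin-rich barcodes 4 rose and 3 fell (all genes: 2.32% and 3.52%). COL1A1, the main chain of fibrillar type I collagen, went from 315 CPM at HH15 to 447 at HH18 and 845 at HH22 (1.81, 1.66 to 1.96), and COL1A2, its partner chain, was at 129, 154 and 162 CPM (0.72, 0.45 to 0.996, neither rule met). TGFBI, an integrin-binding matrix protein, stood at 6.16 CPM at HH15, 19.5 at HH18 and 51.1 at HH22 (3.44, 2.48 to 4.56). The rise of MFAP2, a microfibril protein, and of COL6A3, a type VI collagen chain, met the rule only without globin-rich barcodes, at 147, 206 and 349.6 CPM and 25.3, 59.4 and 66.1 CPM. POSTN (periostin), a matricellular protein of fibroblasts and osteoblast precursors, fell from 84.4 CPM at HH15 to 39.2 at HH18 and 17.0 at HH22 (-1.92, -2.60 to -1.30). In female members it was at 53.6, 45.1 and 33.8 CPM (relative log2 -0.43, neither rule met) and in male members at 120.2, 28.6 and 10.5 CPM, and the female share of members was lower at HH22 than at HH15, a part in the fall that was not tested. LUM (lumican), a small leucine-rich proteoglycan, stood at 556 CPM at HH15, 471 at HH18 and 210.4 at HH22 (-1.01, -1.204 to -0.83), and LAMA4, a laminin chain of vessel and mesenchymal basement membrane, at 38.2 CPM at HH15, 21.9 at HH18 and 10.2 at HH22 (-1.51, -2.43 to -0.68). All 3 fell in both sets of barcodes. COL4A1 and COL4A2, the chains of basement membrane type IV collagen, were at 132, 112 and 55.2 CPM and 70.2, 53.6 and 30.6 CPM and fell with all members only.

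The cartilage and bone list gave few calls (all genes: 1.64% rose and 8.54% fell). Among its 6 tested genes none rose and 1 fell, CNMD (chondromodulin), at 68.4 CPM at HH15, 31.2 at HH18 and 29.97 at HH22 (-0.80, -1.34 to -0.29), which met no rule without globin-rich barcodes and was at 85.8, 35.2 and 76.5 CPM in PDGFRA-positive nasal barcodes (-0.05). SOX9, a conserved regulator of chondrogenesis, was at 66.5, 65.6 and 69.5 CPM (0.45, 0.05 to 0.86), SOX8 at 209.5, 159 and 112 CPM (-0.51) and SOX5 at 24.0, 23.7 and 21.1 CPM (0.20). MECOM, a zinc finger factor, was at 21.0, 27.9 and 34.7 CPM and rose only without globin-rich barcodes.

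BMP and TGF-beta genes gave 3 rising and 1 falling gene among 7 tested (all genes: 1.64% and 8.54%), with a median relative log2 of 1.204. Without globin-rich barcodes 3 rose and none fell (all genes: 2.32% and 3.52%). The 3 are known targets or modulators of BMP signalling. ID2, a dominant-negative helix-loop-helix protein, stood at 44.98 CPM at HH15, 49.7 at HH18 and 141 at HH22 (2.04, 1.65 to 2.44). ID3, of the same family, stood at 62.9 CPM at HH15, 72.2 at HH18 and 130.1 at HH22 (1.44, 1.08 to 1.80). BAMBI, a decoy receptor for BMP and TGF-beta ligands, stood at 15.4 CPM at HH15, 30.6 at HH18 and 49.0 at HH22 (2.06, 1.39 to 2.78). ID1 was at 99.2, 71.6 and 110.3 CPM (0.54) and the ligand TGFB2 at 27.1, 12.9 and 47.7 CPM (1.204), neither in order. TGFB3, a ligand, was at 65.9, 37.2 and 32.0 CPM (-0.65, -1.18 to -0.15) and fell with all members but not without globin-rich barcodes. In PDGFRA-positive nasal barcodes ID3 was at 75.1, 70.4 and 81.0 CPM (relative log2 0.23) and BAMBI at 14.3, 22.9 and 27.0 CPM (1.03), neither meeting the rule, and ID2 at 39.3, 68.6 and 153 CPM. In nasal barcodes without an ALX UMI, ID2 was at 95.7, 87.2 and 149 CPM and ID3 at 149, 102 and 137 CPM.

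FGF genes gave no rise and 2 falls among 10 tested in either set of barcodes (all genes: 1.64% rose and 8.54% fell with all members, 2.32% and 3.52% without globin-rich barcodes). Both that fell encode feedback inhibitors of the pathway, but not all such inhibitors fell. SPRY1 (sprouty) stood at 33.9 CPM at HH15, 18.9 at HH18 and 8.85 at HH22 (-1.55, -2.54 to -0.66). IL17RD (Sef), a membrane inhibitor of FGF signalling, stood at 100.4 CPM at HH15, 64.4 at HH18 and 38.1 at HH22 (-1.01, -1.47 to -0.56). The receptors were closer to the median gene, FGFR1 at 94.9, 85.4 and 62.7 CPM (-0.21), FGFR2 at 85.7, 85.1 and 71.5 CPM (0.13) and FGFR3 at 32.0, 31.8 and 32.0 CPM (0.39). So were the ETS factors ETV4 and ETV5, transcriptional targets of FGF, at 34.5, 42.2 and 23.8 CPM (-0.14) and 90.6, 104 and 69.5 CPM (0.01).

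Among 5 tested Hedgehog genes 1 fell in both sets of barcodes (all genes: 8.54%, and 3.52% without globin-rich barcodes). This was CDON, a co-receptor for Hedgehog ligands, from 98.6 CPM at HH15 to 85.7 at HH18 and 40.2 at HH22 (-0.91, -1.36 to -0.47). The co-receptor BOC was at 29.0, 38.4 and 39.5 CPM (0.84), the transducer SMO at 31.4, 37.5 and 47.0 CPM (0.97) and the transcription factor GLI3 at 76.4, 72.5 and 73.6 CPM (0.33), none meeting either rule. Among 12 tested WNT genes 1 rose in either set (all genes: 1.64%, and 2.32% without globin-rich barcodes), RSPO1, which encodes a secreted amplifier of WNT signalling. RSPO1 was read at 12.9 CPM at HH15, 18.6 at HH18 and 29.97 at HH22 in the members (1.60, 0.82 to 2.43) and at 30.6, 44.5 and 21.6 CPM in nasal barcodes without an ALX UMI. WNT5A, a ligand of outgrowing mesenchyme, was at 214, 204 and 279 CPM (0.77) and the secreted antagonist SFRP1 at 113, 101 and 66.7 CPM (-0.37).

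The cytosolic retinoic acid binding proteins moved apart. CRABP-I, as the annotation names CRABP1, went from 4617 CPM at HH15 to 4296 at HH18 and 1594 at HH22 (-1.15, -1.21 to -1.08), with most of the decline after HH18, and CRABP2 rose from 26.5 CPM at HH15 to 47.6 at HH18 and 91.3 at HH22 (2.17, 1.67 to 2.70). RBP5, a retinol-binding protein, stood at 79.5 CPM at HH15, 103 at HH18 and 167 at HH22 (1.46, 1.15 to 1.78), and the retinoic acid receptor gene RARB at 46.2, 52.7 and 39.5 CPM (0.16). These are the 4 tested genes of the retinoid list (all genes: 1.64% rose and 8.54% fell). The 3 calls held without globin-rich barcodes (all genes: 2.32% and 3.52%). CRABP-I was lower in nasal barcodes without an ALX UMI, at 1133, 1539.5 and 1190.3 CPM, and CRABP2 there stood at 25.9, 31.7 and 119 CPM.

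Axon guidance and Notch genes gave 3 rises and no fall among 11 tested (all genes: 1.64% and 8.54%). They did so too among 12 without globin-rich barcodes (all genes: 2.32% and 3.52%). The 3 are guidance receptors or their ligands, which also steer crest and mesenchymal cells. EPHA3, an ephrin receptor, stood at 12.3 CPM at HH15, 43.4 at HH18 and 67.4 at HH22 (2.84, 2.14 to 3.61). EFNB2, a transmembrane ephrin, stood at 19.7 CPM at HH15, 31.2 at HH18 and 58.6 at HH22 (1.96, 1.36 to 2.59). ROBO1, a receptor for Slit proteins, stood at 32.0 CPM at HH15, 42.2 at HH18 and 85.8 at HH22 (1.81, 1.33 to 2.31). EPHA3 and EFNB2 were also higher at each later stage in nasal barcodes without an ALX UMI, at 29.5, 40.3 and 79.0 CPM and 13.4, 35.5 and 60.1 CPM. ROBO1 is not compared with that group here. The Notch receptors were nearer the median gene, NOTCH1 at 36.4, 36.0 and 50.4 CPM (0.86) and NOTCH2 at 30.8, 36.9 and 29.3 CPM (0.32). In the growth factor list, 1 of 7 tested genes rose (all genes: 1.64%). This was IGFBP4, a secreted binding protein of insulin-like growth factors, at 19.1 CPM at HH15, 29.7 at HH18 and 63.3 at HH22 (2.12, 1.52 to 2.75). Without globin-rich barcodes PTN (pleiotrophin) was added, at 3.7, 7.43 and 53.5 CPM (all genes: 2.32% rose).

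The remaining leading genes of the rise have varied roles. LIX1 went from 3.08 CPM at HH15 to 12.9 at HH18 and 48.4 at HH22 (4.36, 3.07 to 6.03) and BCL11A, a zinc finger repressor, from 4.31 CPM at HH15 to 25.2 at HH18 and 59.3 at HH22 (4.17, 3.07 to 5.53). LRRC17, a secreted leucine-rich repeat protein, stood at 9.86 CPM at HH15, 15.3 at HH18 and 115 at HH22 (3.93, 3.19 to 4.77). SYNPO2, an actin-binding protein, stood at 8.01 CPM at HH15, 15.0 at HH18 and 77.6 at HH22 (3.67, 2.83 to 4.62). The HH15 sums of these 4 genes rest on 5, 7, 16 and 13 UMIs, and LRRC17 and SYNPO2 rose mostly after HH18. NTNG1 (netrin G1), MYL6, JAGN1 and ANO5 were at 9.24, 24.3 and 34.7 CPM, 35.1, 37.5 and 114 CPM, 11.1, 17.4 and 34.1 CPM and 13.6, 15.6 and 40.9 CPM. In PDGFRA-positive nasal barcodes LIX1 was at 10.7, 12.3 and 31.5 CPM, under the minimum, and JAGN1 at 17.9, 21.1 and 27.0 CPM (relative log2 0.71, neither rule met). In nasal barcodes without an ALX UMI LRRC17 was at 2.86, 8.19 and 107 CPM and BCL11A at 6.62, 20.5 and 76.7 CPM.

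The cytoskeletal genes had 1 rise and 3 falls among 12 tested (all genes: 1.64% and 8.54%). VIM, the intermediate filament protein of mesenchyme, rose from 784 CPM at HH15 to 1114 at HH18 and 2156 at HH22 (1.85, 1.76 to 1.94). TPM1, a tropomyosin, fell in both sets of barcodes, from 518 CPM at HH15 to 365 at HH18 and 207 at HH22 (-0.93, -1.13 to -0.74). MYL9 and CNN2 fell with all members only, at 141, 99.2 and 64.7 CPM and 53.0, 43.1 and 25.2 CPM, and CALD1 (caldesmon) rose only without globin-rich barcodes, at 245, 336 and 525 CPM. Of 9 tested adhesion genes 1 fell (8.54% of all genes), CD24, at 134, 76.4 and 63.3 CPM, and it met no rule without globin-rich barcodes. None of 22 tested cell cycle genes rose or fell in either set, and their median relative log2 was -0.12. Within that list PCNA was at 611, 602 and 398 CPM (-0.23), TOP2A at 428, 419.8 and 389 CPM (0.25) and CENPF at 236, 274 and 365 CPM (1.02). Of 17 glycolytic and stress genes, PGK1 (676, 486 and 300.4 CPM) and PGAM1 (600.2, 467 and 286 CPM) fell with all members, beside 8.54% of all genes. None fell without globin-rich barcodes.

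Blood genes were among the largest ratios of the rising set. The embryonic globin genes HBZ and HBM were at 169, 4231 and 28272 CPM and 50.5, 2188 and 11384 CPM, and without globin-rich barcodes at 169, 633 and 2582 CPM and 50.5, 262 and 1062 CPM. H1F0, a linker histone gene, was at 3.7, 142 and 465 CPM with all members and at 3.7, 25.7 and 47.7 CPM without those barcodes, where nasal barcodes without an ALX UMI read it at 6.26, 20.6 and 46.8 CPM. In the blood list 6 of 7 genes rose with all members (all genes: 1.64%) and 3 of 4 tested without globin-rich barcodes (all genes: 2.32%). HBBA, HBE1 and SLC4A1 were at 0 at HH15.

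**Figure D3:**
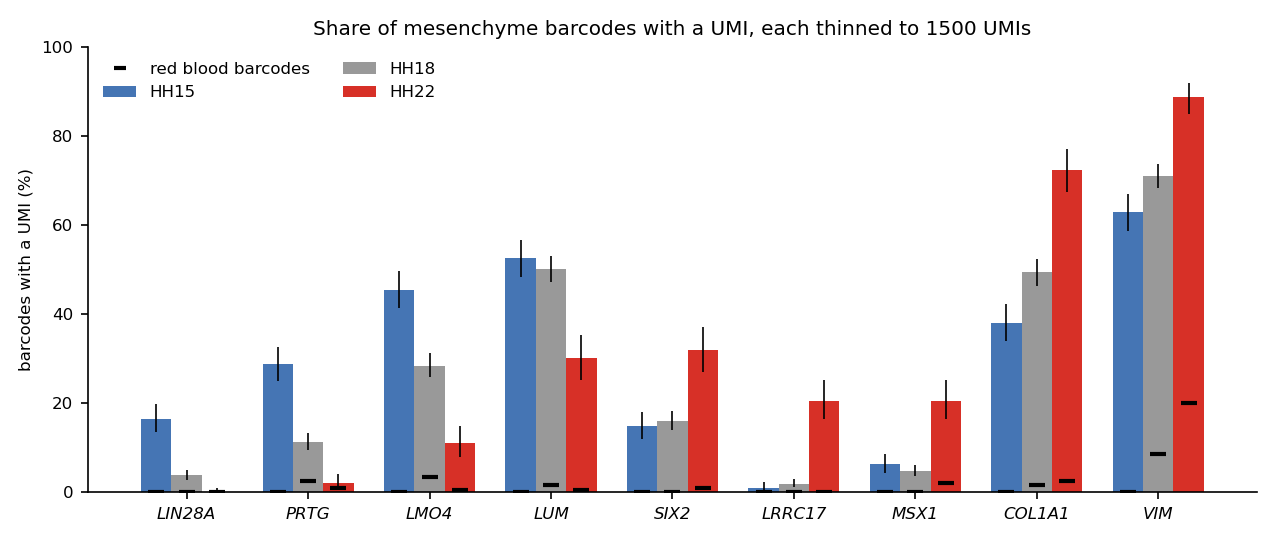
Share of member barcodes with at least 1 UMI of 9 genes after each barcode was thinned to 1500 UMIs (556 barcodes at HH15, 1103 at HH18, 345 at HH22, globin-rich ones left out). Error bars are exact 95% binomial intervals and black ticks the share in barcodes with over 50% globin; COL1A1 went from 38.1% to 72.5% and LIN28A from 16.5% to 0%.

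Shares of barcodes with a UMI were also counted after thinning each barcode to 1500 UMIs. At this depth such a share mostly follows the mean level. Like the sums, it does not tell whether many cells changed a little or few changed much. This left out 87 of 643 barcodes at HH15 and none at HH18 or HH22. COL1A1 was read in 38.1% at HH15 (34.1 to 42.3), 49.4% at HH18 and 72.5% at HH22 (67.4 to 77.1), against 2.58% of red blood barcodes at HH22. VIM was read in 63.0%, 71.1% and 88.7%, but also in 20.1% of red blood barcodes at HH22. LRRC17 was read in 1.08%, 1.99% and 20.6%, with 0 of 194 red blood barcodes at HH22, and MSX1 in 6.29%, 4.81% and 20.6%. Each of these shares was highest at HH22 and stood above that of the red blood barcodes. Before thinning, the red blood barcodes held more UMIs than the globin-poor members (medians 9430, 8812 and 14496 against 2241, 2646 and 3131). Free RNA may thus be a smaller part of a thinned red blood barcode, so its share may understate background. In the other direction LMO4 was read in 45.5%, 28.5% and 11.01%, and LUM in 52.5%, 50.1% and 30.1%. LIN28A was read in 16.5% and 3.81%, and in 0 of 345 barcodes at HH22, which allows a share of barcodes with a UMI at this depth of up to 1.06% (exact 95% limit) and sets no limit on cells that express the gene. PRTG at HH22, in 2.03% (0.82 to 4.14), was near the 1.03% of red blood barcodes and cannot be told from background. CRABP-I was read in 96.6%, 96.7% and 82.9% of barcodes, against 27.6%, 29.6% and 16.0% of red blood barcodes. Unthinned, COL1A1 was read in 50.7%, 68.1% and 90.7%, LMO4 in 61.9%, 44.5% and 25.8%, and LIN28A in 25.4%, 6.07% and 0%.

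**Figure D4:**
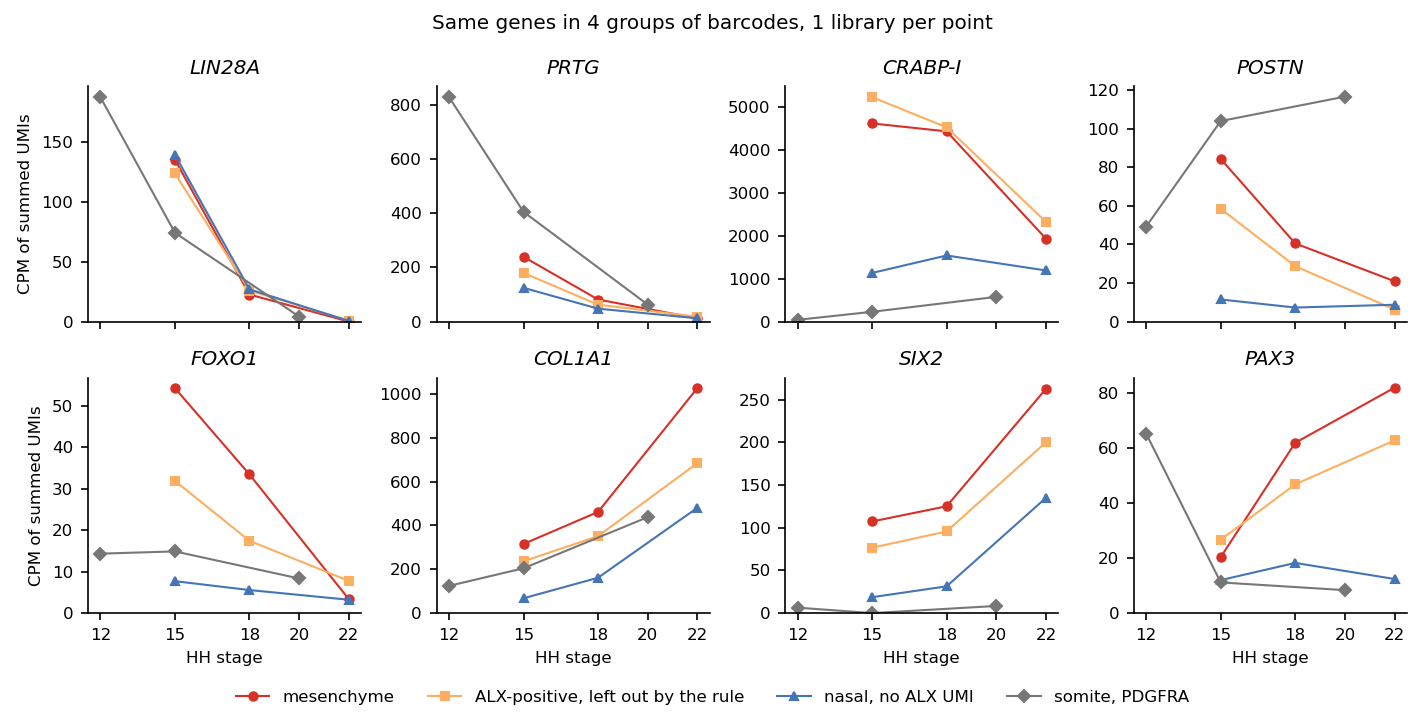
CPM of 8 genes by HH stage in the members (red), in ALX-positive barcodes that the rule left out (orange), in nasal barcodes without an ALX UMI (blue), all without globin-rich barcodes, and in somite barcodes with PDGFRA (grey). Each point is 1 library; LIN28A was lower at each later stage in all 4 groups, while POSTN went from 84.4 to 20.9 CPM in the members and from 49.3 to 117 CPM in the somite barcodes.

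The same genes were set beside their values in other cells, which come from the same nasal libraries and thus share any library effect. The 77 rising genes had a median log2 ratio of 1.39 in the members, 1.40 in ALX-positive barcodes left out by the rule and 1.43 in nasal barcodes without an ALX UMI, where all tested genes had medians of -0.39, -0.16 and 0.07. The 401 falling genes had medians of -1.18, -0.70 and -0.31 in the same 3 groups. The genes were chosen by their values in the members, and globin-rich barcodes were left out of the other groups only, so a smaller median elsewhere is not read as a difference. For the 170 genes that fell without globin-rich barcodes the medians in these groups were -1.24, -0.89 and -0.44. In female and male members taken apart, the rising genes had medians of 1.47 and 1.484 and the falling ones -1.10 and -1.23. Both are parts of the sums that chose the genes, so this likeness was largely set in advance.

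Single genes were also compared across the groups of cells by level. POSTN was at 11.5, 7.27 and 8.72 CPM in nasal barcodes without an ALX UMI and at 49.3, 104 and 117 CPM in the somite PDGFRA barcodes of HH12, HH15 and HH20. FOXO1 was at 7.69, 5.55 and 3.21 CPM and 14.3, 14.9 and 8.34 CPM in the same groups, and PAX3 at 11.99, 18.2 and 12.4 CPM and 65.2, 11.2 and 8.34 CPM. COL1A1 was higher at each later stage in every group, at 67.6, 161 and 481 CPM and 124, 204 and 438 CPM. SIX2 was at 18.6, 31.3 and 135 CPM in nasal barcodes without an ALX UMI and at 6.37, 0 and 8.34 CPM in the somite barcodes. The somite values rest on 202, 114 and 75 barcodes, so low levels there are loosely set. At HH15 FOXO1 was lower in both other groups than in the members, while POSTN was lower in the nasal barcodes without an ALX UMI and higher in the somite barcodes. Differences between these groups were not tested, as each has 1 library per stage.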

How the data were processed

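Cells of pooled chicken embryos were captured with 10x Genomics 3′ chemistry. The deposited files hold raw UMI counts per gene and cell barcode, which the authors made with Cell Ranger on the GRCg6a build with their own annotation of elongated 3′ ends, and which include no cell names. No normalization had been applied. A symbol was given for 12511 of 16828 gene identifiers, and 552 of 610 symbols of the gene lists were found. The study's filters and doublet removal were not applied, other than as alternatives. The filter alternative used the study's cut-offs on UMIs and mitochondrial share, without its cut-off on the ratio of UMIs to genes. Annotation with longer 3′ ends can move reads between neighbouring genes, and levels are not compared between genes.

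Member barcodes were summed per library and expressed as CPM, the share of all summed counts scaled to 1000000. Intervals are exact Poisson intervals for a level, exact conditional binomial intervals for a ratio and exact binomial (Clopper-Pearson) intervals for a share, all at 95% and for counting error only, with a floor of 3 counts for a 0. Summed depth was 1468277 to 3337607 UMIs a stage. As each stage has 1 library, no p-value was computed. Genes were named by rule: in each direction the 15 largest ratios among genes at least as high in the members as in other nasal barcodes, the 5 largest among the rest and up to 12 transcription factors, with every list gene that rose or fell, further list genes of at least 20 CPM as values, and the genes of the rule with PDGFRA, PRRX1, TWIST1, TFAP2A and TFAP2B. The comparison with other nasal barcodes kept globin-rich ones in both groups. SMOC2, SH3BP4, DCN, MFAP2, COL6A3, MECOM, CALD1 and PTN were named after their values were seen. Some genes that the rule names are not reported here. Members, lists and rules were chosen with earlier results of these data known. The recovery of set changes was tested on simulated data. Barcodes were called female above 30 UMIs of WPKCI-7 in each 10000 and male at 15 or fewer. Alternatives covered filters, doublets (Scrublet in scanpy), scaling (TMM), depth, the rule, weighting, sex and thresholds. Those that left out globin-rich barcodes or did not use FABP7 were chosen after seeing the data. Software was Python 3.11.15 with numpy 2.4.6, scipy 1.17.1, pandas 2.3.3, scanpy 1.11.5 and matplotlib 3.10.9, and R 4.3.3 with edgeR 4.0.16 for the TMM factors alone.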

Additional observations from a re-analysis of the deposited data

How the results depend on the processing

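The count of 77 rising genes became 137 with TMM factors, 193 with totals that leave out globin, mitochondrial and ribosomal protein genes, 143 with TMM factors and without globin-rich barcodes, 32 at a mean of at least 50 CPM, 186 with no minimum and 122 at 1.5-fold. The count of 401 falling genes became 260 under the study's UMI and mitochondrial cut-offs, 121 with TMM factors and 150 with totals that leave out the same gene classes. It became 187 after thinning, 243 at 2 or more ALX UMIs, 110 with PDGFRA in place of ALX, 252 as a mean over cells and 238 in female cells. It was 169 at 50 CPM, 994 at 1.5-fold, 170 without globin-rich barcodes and 119 there with TMM factors. Doublet removal moved neither count by over 1.5 times, nor did ALX4 alone, ALX1 alone, male cells or the exclusion of further lineage genes, and without FABP7 in the rule 55 rose and 437 fell. The cause of each move was not tested. Leaving out globin-rich barcodes left 345 members at HH22, 28.3% of 1218. Of 1243 values of 78 named genes under the alternatives, 137 moved and 1 changed direction, the relative log2 ratio of NR3C1, at 0.0598 in female cells. KRT8 is no symbol in the files, so that exclusion ran without it. No paired analysis was possible because each stage has 1 library. Depth limits genes of few UMIs, such as FOXO1 at HH22.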
